A study of Mus musculus with 15 samples.

Results

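The brain endothelial and barrier genes described here are 10 genes chosen by symbol, Cldn5, Ocln, Cdh5, Pecam1, Abcb1a, Slco1a4, Mfsd2a, Flt1, Tek and Sox17, read out of 29659 genes in each of 15 bulk RNA-seq samples of mouse thalamus. All 10 were found and all 10 passed the filter on low values. The mice sampled were 4.5 months old and the samples fell into 4 genotype groups, and all carried human APOE4 in place of the mouse Apoe gene. 5EL mice (n = 5) were 5xFAD/APOE4+/+/Lilrb4a+/+, and 5ELKO mice (n = 4) were 5xFAD/APOE4+/+/Lilrb4a-/-. EL mice (n = 3) were APOE4+/+ with Lilrb4a intact and without 5xFAD, and ELKO mice (n = 3) were APOE4+/+/Lilrb4a-/- without 5xFAD. 5xFAD is a transgenic mouse with mutant human amyloid precursor protein and presenilin under a neuronal (Thy1) promoter, and Lilrb4a encodes an inhibitory receptor of myeloid cells that was deleted in every cell, not in endothelium or microglia alone. Mice had been perfused with cold saline before the brain was taken. The study compared 5ELKO with 5EL to ask what loss of Lilrb4a does to thalamic gene expression in amyloid-bearing APOE4 mice, and EL and ELKO give the same question without amyloid.

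Brain endothelial cells line the cerebral vessels and form the blood-brain barrier. They seal the gap between neighbouring cells with tight and adherens junctions, carry nutrients and lipids across the wall, and pump drugs and metabolites back into the blood. VEGF and angiopoietin receptors on their surface regulate growth and stability of the vessel, and SOX and ETS family transcription factors hold the endothelial state. Apart from Ocln, which epithelial cells such as choroid plexus also use, the 10 transcripts are used as marks of endothelium in brain tissue. The tissue was sampled whole, so fewer endothelial cells and less RNA per endothelial cell cannot be told apart in any value below.

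The deposited values are on a log2 scale and carry no counts, so the depth behind each value is unknown from the files; a difference of 1 unit would be a 2-fold change. Thalamic neuron genes were high throughout (Tcf7l2 12.76 to 13.19, Slc17a6 13.68 to 14.01 log2). Lilrb4a was low in all samples, with 2.33 the highest value among 7 knockout samples and 2.34 the lowest among the 8 intact ones, so the deleted gene checks the labels only by a narrow margin. Some samples stood apart. Ttr, the transthyretin gene of the choroid plexus, was 13.7 in 5EL replicate 1 and 14.7 in ELKO replicate 2 against at most 10.3 in the 13 other samples. Mouse Apoe was 10.9 in ELKO replicate 1 against at most 6.37 in the 14 others, which goes against the knock-in genotype of that mouse. Results that rest on these samples are given below also without them.

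Flt1 was the only one of the 10 genes that passed a test between 5ELKO and 5EL, and it is the member to which the growth factor results below refer. The 250 bases before the transcription start of Flt1, of Kdr, the other main VEGF receptor, and of Tek, the other receptor kinase among the members, are shown for orientation, from RefSeq on GRCm38.p6, which held promoters for 7 of the 10 members (not Pecam1, Sox17 and Cdh5). They lie at chr5:147726012-147726261 (minus strand), chr5:75978456-75978705 (minus strand) and chr4:94739039-94739288 (plus strand). Capitals mark GGAAG or its reverse complement CTTCC, a form of the core letters that ETS family factors recognise. Other forms of the core were not searched for and are not marked.
Flt1: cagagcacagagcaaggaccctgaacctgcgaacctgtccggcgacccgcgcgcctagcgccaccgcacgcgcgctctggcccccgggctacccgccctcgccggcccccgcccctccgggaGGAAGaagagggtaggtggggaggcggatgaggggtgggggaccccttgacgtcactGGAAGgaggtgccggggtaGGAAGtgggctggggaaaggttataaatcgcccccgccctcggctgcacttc
Kdr: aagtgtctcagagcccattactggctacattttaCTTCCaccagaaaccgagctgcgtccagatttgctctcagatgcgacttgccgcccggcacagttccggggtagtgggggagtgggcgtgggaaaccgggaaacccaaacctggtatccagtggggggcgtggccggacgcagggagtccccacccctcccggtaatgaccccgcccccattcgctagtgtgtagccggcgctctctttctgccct
Tek: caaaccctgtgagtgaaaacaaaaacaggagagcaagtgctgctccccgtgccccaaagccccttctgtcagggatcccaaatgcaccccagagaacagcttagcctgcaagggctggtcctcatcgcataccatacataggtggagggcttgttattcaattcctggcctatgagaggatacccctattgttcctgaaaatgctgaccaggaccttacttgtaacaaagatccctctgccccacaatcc
The Flt1 stretch held 3 copies of GGAAG or CTTCC, 3 GC boxes (GGGCGG, either strand), 23 CpG and 70.4% G and C. The Kdr stretch held 1 copy, 2 GC boxes, 16 CpG and 61.6% G and C. The Tek stretch held 0 copies, 0 GC boxes, 2 CpG and 51.2% G and C. It also held 2 copies of ACAAT or its reverse complement ATTGT, a form of the core letters of SOX factors. The Flt1 and Kdr stretches had 0 of these. Among 32851 mouse promoters read over the same 250 bases, 64.1% held GGAAG or CTTCC, 27.7% ACAAT or ATTGT and 32.7% the GC box. The letters are thus common and mark no binding site by themselves.

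Per exon length, Cldn5 and the 3 transporters lay highest of the 10 genes and the transcription factor Sox17 lowest. Levels were compared between genes as the deposited log2 value minus the log2 of exon kilobases, averaged over the 15 samples. Cldn5, the claudin that seals brain endothelial tight junctions, came first at 8.94 ± 0.18 (SD, n = 15), above 88.1% of the 15289 tested genes with a length. Mfsd2a, the transporter of lysophospholipid-bound docosahexaenoic acid that also restrains transcytosis, followed at 8.39 ± 0.19 and was below Cldn5 in 14 of 15 samples. Abcb1a, the P-glycoprotein drug pump, at 7.49 ± 0.075 and Slco1a4, an organic anion transporter, at 7.47 ± 0.17 could not be ordered, Abcb1a being above in 9 of 15 samples. Flt1, the VEGF receptor VEGFR1, lay at 7.26 ± 0.16, below Slco1a4 in 13 of 15 samples.

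The next 4 genes lay close together around the median of all tested genes, 6.38 log2 per kilobase. Pecam1 (CD31, an adhesion molecule of endothelial contacts) was at 6.49, Cdh5 (VE-cadherin, of the adherens junction) at 6.35, Tek (the angiopoietin receptor Tie2) at 6.12 and Ocln (occludin, of the tight junction) at 6.03, each step being seen in 13 to 15 of the 15 samples. Sox17, a transcription factor of arterial endothelium, was lowest at 4.78 ± 0.096, below Ocln in 15 of 15 samples and above 27.2% of tested genes. These levels rest on the union of annotated exons, and Flt1, with 13504 exon bases against 1416 for Cldn5, would move most if a short form were the main transcript. The soluble and the membrane form of Flt1 are counted together.

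**Figure D1:**
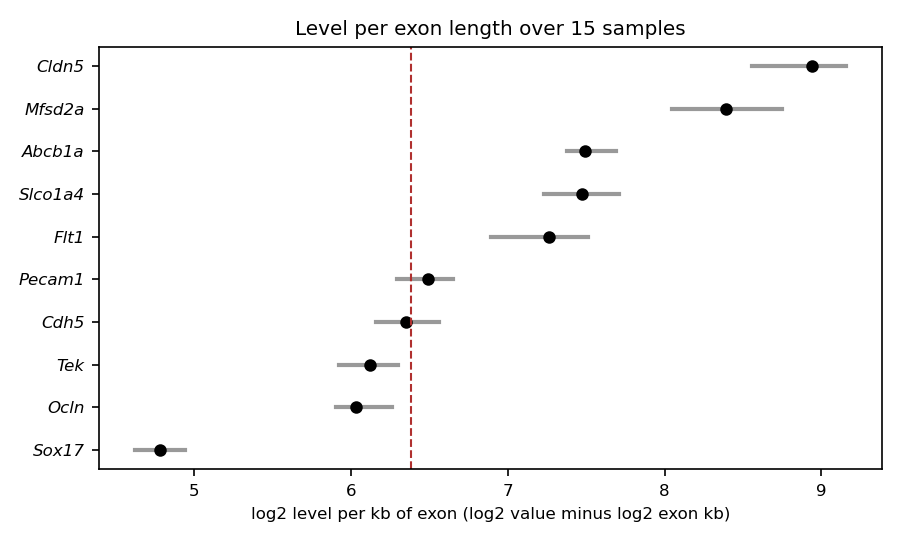
Mean level per kilobase of exon (log2, horizontal axis) of each of the 10 genes over 15 samples; the dot is the mean, the grey bar runs from the lowest to the highest sample and the dashed line is the median of all tested genes, 6.38. Cldn5 and Mfsd2a lie highest, Abcb1a and Slco1a4 coincide within 0.01, and Sox17 lies apart at 4.78.

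Between 5ELKO and 5EL, Flt1 rose and the other 9 genes did not pass the test. Deposited log2 values of Flt1 (chr5:147561604-147726011, minus strand, GRCm38) were 10.94, 10.85, 10.64, 11.11 and 11.05 in the 5 5EL samples and 11.03, 11.26, 11.17 and 11.27 in the 4 5ELKO samples. A total of 3 of 4 5ELKO samples lay above every 5EL sample, and the lowest, replicate 1, lay within the 5EL range. The mean rose from 10.92 ± 0.18 to 11.18 ± 0.11 (SD), a log2 difference of 0.26 (SE 0.086, 95% CI 0.08 to 0.45, 1.2-fold), with a nominal limma p of 0.00969 and an exact permutation p of 0.0476 (two-sided; the smallest possible was 0.00794). After Benjamini-Hochberg adjustment over 15743 genes the limma p was 0.999. So 1 of 10 members was called at a nominal p under 0.05, where 2.49% of all tested genes were, and 0 of 10 at an adjusted p under 0.05, where 0.0191% were. Flt1 fell just short of the study's own threshold of a nominal p under 0.05 with a fold over 1.2 (0.263 in log2), which 0.254% of genes passed and 0 members did. The call held with each of the 9 samples left out in turn, with differences of 0.19 to 0.31, the smallest without 5EL replicate 3, the sample lowest in Flt1.

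None of the 4 junction genes was called, and all 4 differences were above 0 with intervals that spanned 0. Cldn5 (chr16:18776847-18778262, plus strand) was 9.18, 9.51, 9.06, 9.54 and 9.51 in 5EL and 9.26, 9.60, 9.66 and 9.57 in 5ELKO. Here 3 of 4 5ELKO samples were above every 5EL sample and replicate 1 was not, and the difference of 0.16 (95% CI -0.08 to 0.40) had a limma p of 0.169 and an exact permutation p of 0.262. Pecam1 was 9.0 to 9.20 in 5EL and 9.07 to 9.29 in 5ELKO, with a difference of 0.09 (95% CI -0.04 to 0.22). Cdh5 was 8.25 to 8.49 against 8.30 to 8.59 (difference 0.06, 95% CI -0.09 to 0.21), and Ocln was 7.99 to 8.21 against 8.03 to 8.27 (difference 0.04, 95% CI -0.11 to 0.18). The groups overlapped for all 4 genes.

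Among the transporters, Mfsd2a was the most variable. It was 9.56, 9.58, 9.67, 9.63 and 9.61 in 5EL and 9.92, 9.22, 9.43 and 9.51 in 5ELKO. The 5EL samples spanned 9.56 to 9.67, while 5ELKO replicate 1 lay above all of them and the 3 other 5ELKO samples lay below all of them, so the difference was -0.09 with a 95% CI of -0.32 to 0.14. Without 5ELKO replicate 1 the Mfsd2a difference was -0.22 and that of Cldn5 was 0.25, and 3 members, these 2 and Flt1, were then called, so 1 sample decided both values. Abcb1a was 9.83 to 10.03 in 5EL and 9.89 to 10.15 in 5ELKO (difference 0.04, 95% CI -0.09 to 0.17). Its paralog Abcb1b stayed at 5.86 to 6.06 in all 15 samples. Slco1a4 was 9.97 to 10.30 in 5EL and 9.91 to 10.39 in 5ELKO (difference 0.05, 95% CI -0.14 to 0.25).

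The angiopoietin receptor Tek was 8.16 to 8.40 in 5EL and 8.31 to 8.51 in 5ELKO, a difference of 0.06 (95% CI -0.08 to 0.20). Sox17 was 6.90 to 7.12 in 5EL and 6.88 to 7.04 in 5ELKO, a difference of -0.06 (95% CI -0.20 to 0.07). Over the 10 genes, 8 differences were above 0 and 2 below, with a median of 0.057, while 51.0% of all tested genes were above 0 with a median of 0.0016. No interval of the 10 reached beyond 0.45 log2 in either direction, a 1.36-fold change. The groups overlapped for all 10 genes, and 1.06% of all tested genes had groups that did not overlap.

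**Figure D2:**
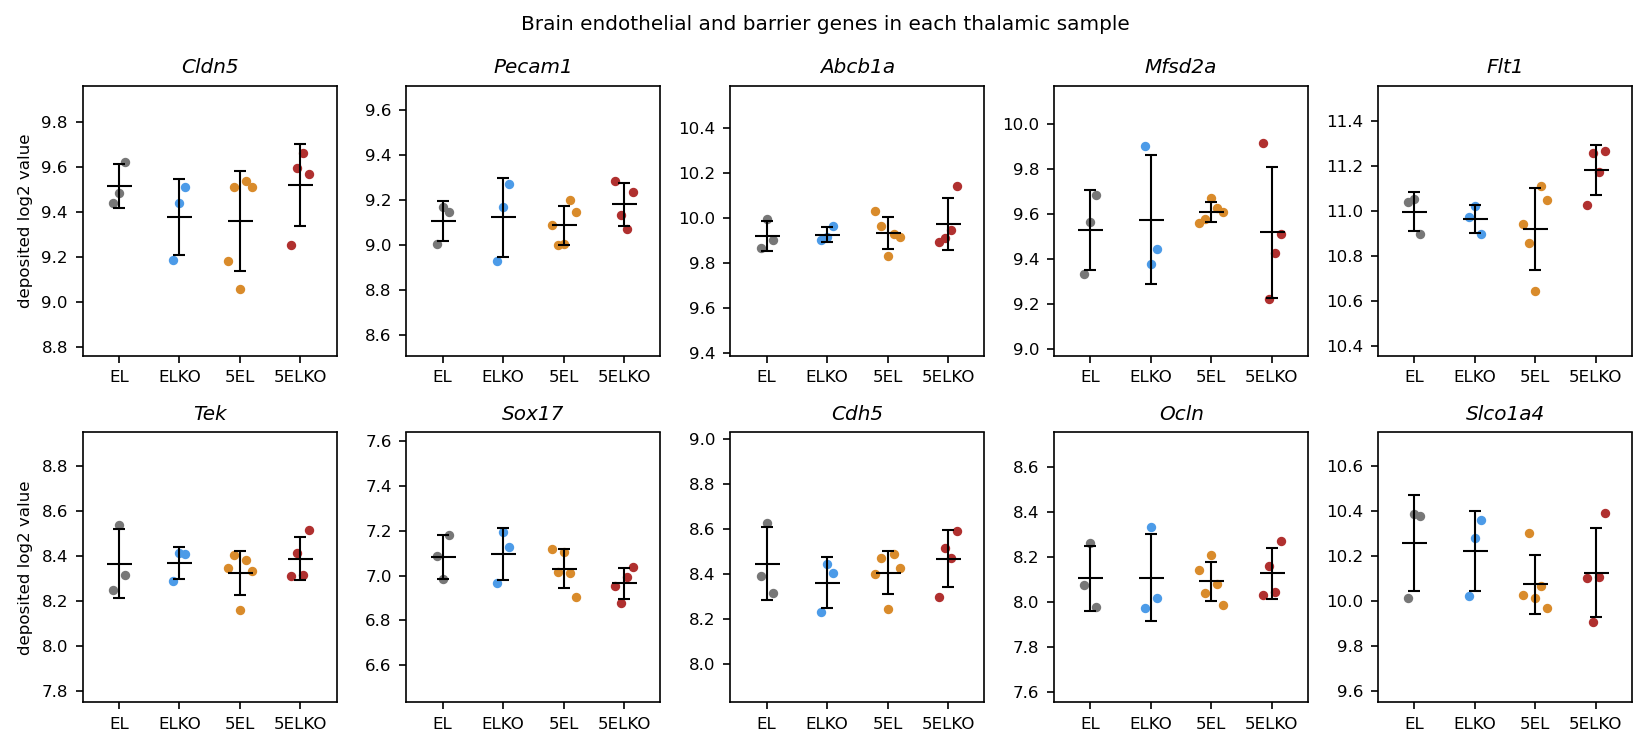
Deposited log2 value (vertical axis, 1.2 units in each panel) of each gene in each of the 15 samples, by genotype group; points are samples in the order of their replicate number, and the line and bars are the group mean and SD. In Flt1, 3 of 4 5ELKO samples lie above every 5EL sample, and in Mfsd2a and Cldn5 the first 5ELKO and the first ELKO sample lie away from the others of their group.

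The change in Flt1 was set beside the genes of the same pathways, listed from textbook knowledge. Of 12 VEGF and angiopoietin genes other than the members, 2 were called higher in 5ELKO and 0 lower. Differences were above 0 for 6 and below 0 for 6, with a median of 0.01. Vegfa, the ligand of both Flt1 and Kdr, was 9.98, 9.87, 9.87, 9.97 and 9.96 in 5EL and 9.98, 9.99, 10.24 and 10.13 in 5ELKO. Every 5ELKO sample was above every 5EL sample, the first by less than the 2 decimals given here show, and the difference was 0.15 (SE 0.057, limma p = 0.0198, exact permutation p = 0.00794). The call on Vegfa ended without 5ELKO replicate 3 (0.10) or replicate 4 (0.14). Kdr was 8.11, 8.11, 7.66, 8.05 and 8.12 in 5EL and 7.96, 8.42, 8.30 and 8.36 in 5ELKO. As for Flt1 and Cldn5, 5ELKO replicate 1 was the lowest of its group and within the 5EL range, and 5EL replicate 3 was lowest of all. The Kdr difference was 0.25 (SE 0.11, limma p = 0.04, exact permutation p = 0.0873). It no longer passed the nominal limma test without 5EL replicate 3 (0.17) or 4 (0.26), or without 5ELKO replicate 2 (0.20), 3 (0.24) or 4 (0.22). The adjusted limma p of both genes was 0.999.

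Of 11 junction genes outside the members 2 were called higher and 0 lower, with 7 differences above 0 and 4 below. Tjp1, which encodes the tight junction scaffold ZO-1 and is also made outside endothelium, was 10.92, 10.87, 10.78, 10.91 and 10.96 in 5EL and 11.01, 11.08, 11.03 and 11.05 in 5ELKO, without overlap. Its difference of 0.15 (SE 0.043, limma p = 0.00413, exact permutation p = 0.0159) passed with each sample left out. Ctnnd1, p120-catenin of the adherens junction, rose by 0.13 (SE 0.053, exact permutation p = 0.0159). That call ended when any 1 of 5 samples was left out, the 5EL replicates 2 and 3 and the 5ELKO replicates 2, 3 and 4, with differences of 0.11 to 0.13. Of 17 further barrier transporters 1 was called higher, with 7 differences above 0 and 10 below. It was Slc19a3, the thiamine transporter, higher by 0.14 (SE 0.059, exact permutation p = 0.00794), a call that ended without any 1 of 4 samples. Of 12 endothelial transcription factors 1 was called lower, with 8 differences above 0 and 4 below. It was Tal1, lower by 0.16 on the log2 scale (exact permutation p = 0.0159), a call that ended without any 1 of 3 samples. None of 15 endothelial identity genes, 13 Wnt and Norrin genes that maintain the barrier, 8 tested caveola and adhesion genes and 9 tested arterial genes passed. In all, 6 of 97 tested vessel genes outside the members were called, 5 higher and 1 lower, or 6.19% against 2.49% of all genes, and 0 at an adjusted p under 0.05. The adjusted limma p of each of the 6 was 0.999. The count of 6 became 3 without 5ELKO replicate 3 and 8 without 5EL replicate 2.

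Markers of other cells were measured beside these values. Genes of hepatocytes, which brain tissue should hardly make, moved with the same comparison. In 5ELKO 10 of 10 were called higher, against 1.53% of all genes, 3 of them at an adjusted limma p under 0.05. Their summed level was 7.93 to 8.24 in 5EL and 8.58 to 9.18 in 5ELKO. It was 7.92 to 8.15 in ELKO and 7.98 to 9.41 in EL (median 7.99), where the highest sample lay above every 5ELKO sample. Pericyte and smooth muscle genes, of the cells that wrap the vessel, were 11 of 12 higher with 0 called, and their summed level was 12.5 to 12.66 in 5EL and 12.55 to 12.82 in 5ELKO. The summed level of the 15 endothelial identity genes was 12.84 to 13.09 in 5EL and 12.84 to 13.01 in 5ELKO, with 12 of 15 differences below 0. Choroid plexus genes were 10 of 10 lower with 0 called (10.33 to 13.99 in 5EL, 10.47 to 11.11 in 5ELKO), and without 5EL replicate 1, the sample high in them, the Flt1 difference was 0.27 and still called. The part of the hepatocyte and pericyte signal in the Flt1 result was not tested.

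**Figure D3:**
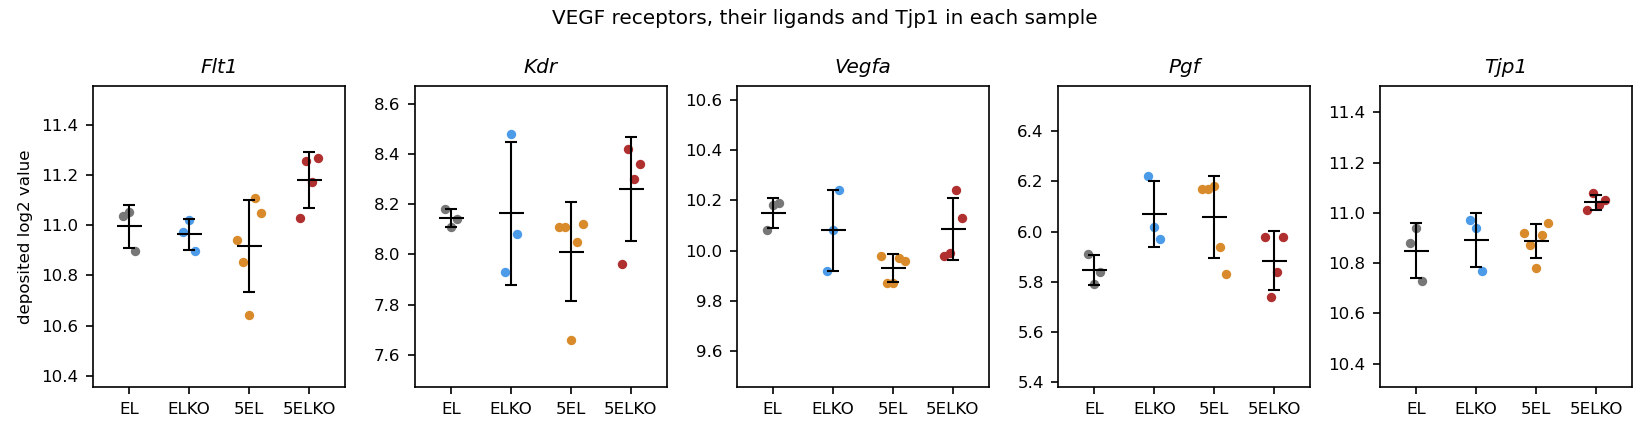
Deposited log2 value (vertical axis, 1.2 units in each panel) of Flt1, Kdr, Vegfa, Pgf and Tjp1 in each sample by genotype group, with group mean and SD. 5ELKO samples of Vegfa and Tjp1 do not overlap with 5EL, those of Flt1 and Kdr overlap through replicate 1, and the 3 ELKO samples of Pgf lie above the 3 EL samples.

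Without 5xFAD, loss of Lilrb4a gave no member that passed a test. Between ELKO and EL the differences ran from -0.14 (Cldn5) to 0.05 (Mfsd2a), 0 of 10 passed at a nominal p under 0.05 against 2.35% of all genes, and the groups overlapped for all 10, against 4.59% of all genes whose groups did not overlap. With 3 samples a group no exact permutation p can go under 0.1. Flt1 was 11.04, 11.05 and 10.90 in EL and 10.97, 11.02 and 10.90 in ELKO, nearly the same range, with a difference of -0.03 (SE 0.099, 95% CI -0.24 to 0.18). Cldn5 was 9.44, 9.48 and 9.62 in EL and 9.19, 9.44 and 9.51 in ELKO. Mfsd2a was 9.33, 9.57 and 9.69 in EL and 9.90, 9.38 and 9.44 in ELKO. ELKO replicate 1, the sample with mouse Apoe, thus had the lowest Cldn5 and the highest Mfsd2a of these 6. The widest interval of the 10 reached 0.42 log2, a 1.34-fold change. Over all genes 372 were called, but 1832 without EL replicate 1, 1380 without ELKO replicate 3, 215 without EL replicate 3 and 194 without ELKO replicate 2, so the background of 2.35% rests on single samples. Same-numbered EL and ELKO samples deviated together, and so did replicates 1 and 2 of these groups across numbers. A fit of the 6 EL and ELKO samples alone with the number as a block called 0 members and 1110 genes overall. The samples in the fit and the block changed together there, and their shares in that count were not told apart.

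Of the listed vessel genes 2 of 97, or 2.06%, were called between ELKO and EL. The count was 0 without EL replicate 2 and 13 without ELKO replicate 3. Pgf, placental growth factor, a ligand of Flt1 and not of Kdr, was 5.91, 5.79 and 5.84 in EL and 6.22, 6.02 and 5.97 in ELKO, a rise of 0.22 (SE 0.10, limma p = 0.0424, exact permutation p = 0.1). Fzd4, the Norrin receptor, was 8.17, 8.37 and 8.39 in EL and 8.68, 8.74 and 8.53 in ELKO, a rise of 0.34 (SE 0.15, limma p = 0.0405, exact permutation p = 0.1). Both were called in the blocked fit of the 6 samples too. Leaving out EL replicate 2 (0.20), EL replicate 3 (0.22) or ELKO replicate 1 (0.15) ended the call on Pgf. Leaving out replicate 1 or 2 of EL (0.27 and 0.37) or of ELKO (0.33 and 0.29) ended that on Fzd4. Without 5EL replicate 1 and both ELKO samples that stood apart, ELKO is left with replicate 3 alone. The differences were then 0.12 for Pgf and 0.22 for Fzd4. Red cell genes were higher in EL than in ELKO (summed level 7.22 to 9.44 against 6.8 to 6.95), a difference that moves with this comparison and whose part in it was not tested.

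The 5xFAD transgenes with Lilrb4a intact gave no member that passed either. Between 5EL and EL the differences ran from -0.18 (Slco1a4) to 0.08 (Mfsd2a), 8 of 10 were below 0 and 2 above, with a median of -0.04, where 50.2% of all genes were above 0, and 0 of 10 passed at a nominal p under 0.05 where 7.7% of all genes did. That background was 1217 genes, which became 354 without EL replicate 3 and 3204 without EL replicate 1. Adjusted limma p-values were 0.644 to 0.961, and the widest interval reached 0.43, a 1.35-fold change. Groups overlapped for all 10, against 3.26% of all genes whose groups did not. Slco1a4 was 10.02, 10.30, 10.01, 10.07 and 9.97 in 5EL and 10.01, 10.39 and 10.38 in EL. A total of 2 of 3 EL samples were above every 5EL sample and EL replicate 1 was not, and without EL replicate 1 the difference was -0.31 and was called. Flt1 was lower in 2 of 5 5EL samples than in any EL sample and higher in 1, with a difference of -0.08 (95% CI -0.27 to 0.11).

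Around the members, 12 of 97 vessel genes were called between 5EL and EL, 9 higher and 3 lower, or 12.4% against 7.7% of all genes, and 0 at an adjusted p under 0.05. The 12 became 3 without EL replicate 3 and 18 without EL replicate 1. Abcc4, an efflux pump of organic anions and cyclic nucleotides, rose by 0.30 (SE 0.084, exact permutation p = 0.0179) and was called with each sample left out. Efnb2, the arterial ephrin ligand, rose by 0.32 (SE 0.13, exact permutation p = 0.125), a call that ended without any 1 of 4 samples and was 0.15 without EL replicate 3. Slc2a1, the glucose transporter GLUT1, was 11.97, 11.74, 12.19, 11.92 and 11.90 in 5EL and 11.62, 11.72 and 11.71 in EL, without overlap, and rose by 0.26 (SE 0.12, exact permutation p = 0.0536). That call ended without 5EL replicate 1 (0.25), 3 (0.20) or 4 (0.27), or without any 1 of the 3 EL samples (0.23, 0.28 and 0.27). Vegfa fell by 0.22 (SE 0.073, limma p = 0.00882, exact permutation p = 0.0179), from 10.08, 10.18 and 10.19 in EL to the 5EL values given above; this comparison and 5ELKO against 5EL share the 5EL samples. Tspan12, a co-receptor for Norrin, fell by 0.30 (SE 0.10, exact permutation p = 0.0714), and Slc16a1, the lactate transporter MCT1, fell by 0.24 (SE 0.093, exact permutation p = 0.125). Without EL replicate 3 neither was called (-0.17 and -0.15). Nrp1, Flt4, Pgf, Slc52a3 and Klf4 were also called, higher by 0.15 to 0.22, and each of these calls ended in 2 to 10 of the 15 fits that left out 1 sample. EL and 5EL also differed in thalamic neuron genes, of which 5 of 8 were called lower in 5EL. The number called was 1 to 7 when 1 sample was left out. Their summed level was 15.89 to 16.18 in 5EL against 16.19 to 16.43 in EL. Red cell genes differed as well (7.02 to 7.36 against 7.22 to 9.44), and the part of either in the vessel values was not tested.

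With Lilrb4a absent, 5xFAD samples had more Flt1 than samples without the transgenes. Between 5ELKO and ELKO all 4 5ELKO values of Flt1 (11.03 to 11.27) were above all 3 ELKO values (10.90 to 11.02), and the rise was 0.22 (SE 0.093, 95% CI 0.02 to 0.42, limma p = 0.0334, exact permutation p = 0.0571, the smallest possible being 0.0286). It was the only member called, 1 of 10 against 2.37% of all genes, and the only one whose groups did not overlap, against 3.4%, and its adjusted limma p was 0.999. The call was not stable. It ended when 5ELKO replicate 2 (0.19), 3 (0.22) or 4 (0.19) was left out, or ELKO replicate 1 (0.22) or 3 (0.18). Without the 3 samples that stood apart, which leaves ELKO with replicate 3 alone, the difference was 0.28. Sox17 was 6.88 to 7.04 in 5ELKO and 6.97, 7.19 and 7.13 in ELKO, a difference of -0.13 (95% CI -0.29 to 0.03) that became -0.19 without ELKO replicate 1 and was then called. The other 8 differences ran from -0.09 to 0.14, and 3 of 97 listed vessel genes were called (3.09%): Tjp1, higher by 0.15 (exact permutation p = 0.0286), Nrp1, a co-receptor for VEGF, higher by 0.25 (exact permutation p = 0.0857), and Ushbp1, an endothelial gene, which fell by 0.18 (exact permutation p = 0.0286). The call on Tjp1 ended without 5ELKO replicate 2 (0.13) or 4 (0.15) or ELKO replicate 3 (0.09), and with the replicate block. Those on Nrp1 and Ushbp1 ended without any 1 of 4 and of 3 samples. The count of 3 vessel genes became 2 without 5ELKO replicate 1 and 6 without ELKO replicate 1. This comparison shares its 5ELKO samples with 5ELKO against 5EL, so the Flt1 values in the 2 are not independent. Hepatocyte genes were also called higher in it, 9 of 10 against 1.48% of all genes, though 4 of 10 without ELKO replicate 1. Genes called overall were 375, and 794 without that sample.

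**Figure D4:**
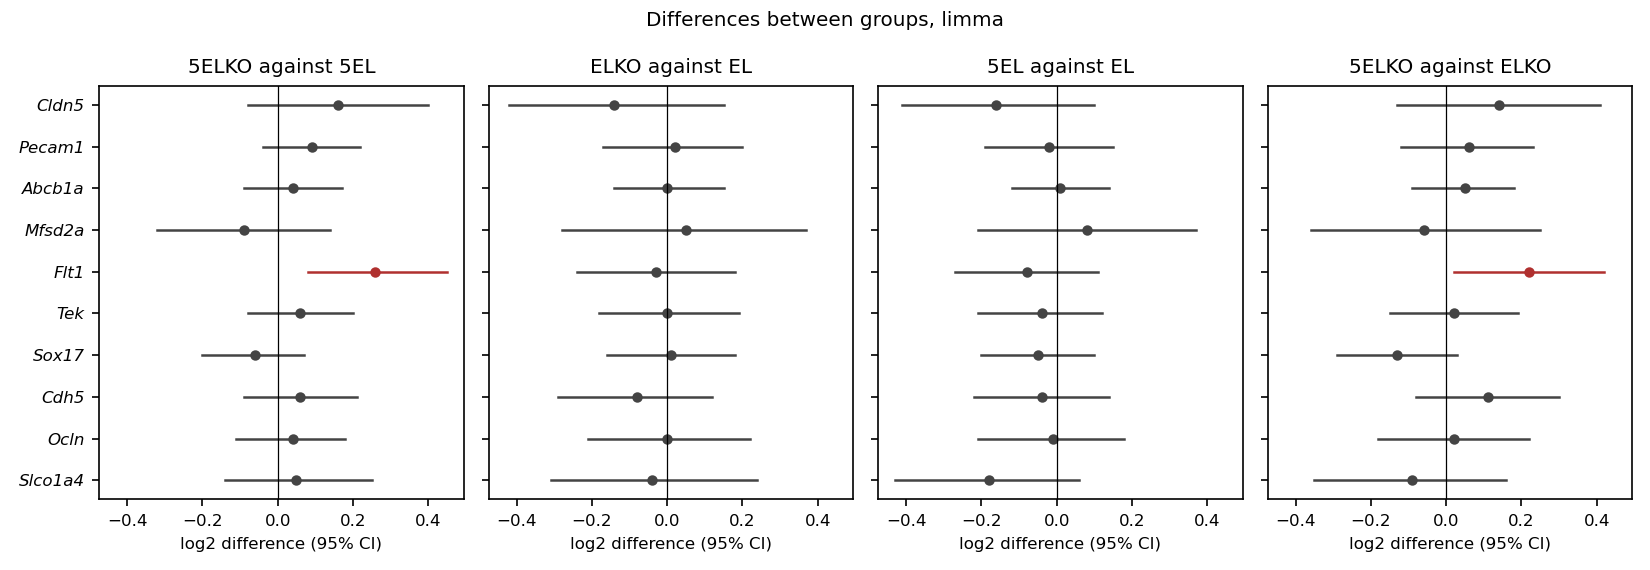
Log2 difference of each gene in the 4 comparisons (horizontal axis; dot and 95% confidence interval from limma, red where the nominal p is under 0.05). Flt1 is red in 5ELKO against 5EL (0.26) and in 5ELKO against ELKO (0.22), and no gene is red in the other comparisons.

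Whether loss of Lilrb4a acted differently with and without 5xFAD was tested as the interaction, the difference of the 2 differences, on all 15 samples. For Flt1 it was 0.29 (SE 0.13, 95% CI 0.02 to 0.57, adjusted p = 1.0), a nominal limma call, from 0.26 with and -0.03 without 5xFAD. It was the only member called, 1 of 10 against 2.73% of all genes. The call ended in 8 of the 15 fits that left out 1 sample, in which the value was 0.26 to 0.30. These were the fits without 5EL replicate 2, 5ELKO replicate 2, 3 or 4, EL replicate 1 or 2, or ELKO replicate 1 or 3. Without the 3 samples that stood apart, which leaves ELKO with replicate 3 alone, the value was 0.36. For Cldn5 the interaction was 0.30 (SE 0.17, 95% CI -0.07 to 0.67), which was not called, and it became 0.39 and was called without 5ELKO replicate 1. The intervals of the other 8 genes all spanned 0. Of the listed vessel genes 5 of 97 were called (5.15%), Ctnnd1 and Vegfa upward and Slc2a1, Pgf and Fzd4 downward. The count was 3 without 5EL replicate 3 and 11 without ELKO replicate 3. Ctnnd1 and Pgf were called in all 15 fits that left out 1 sample, while the call ended in 3 for Fzd4, in 10 for Vegfa and in 10 for Slc2a1. Over all genes 432 were called, but 1231 without EL replicate 1, 851 without ELKO replicate 3 and 269 without ELKO replicate 2. Hepatocyte genes were 10 of 10 called upward in the interaction (6 to 10 when 1 sample was left out), and red cell genes 2 of 3 tested. Pericyte and smooth muscle genes were 12 of 12 upward with 0 called, and choroid plexus genes 10 of 10 downward with 1 called. The part of these in the Flt1 and vessel values was not tested.

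The 10 genes differed in how steady they were among samples of 1 group. The pooled SD within groups (11 degrees of freedom) was smallest for Abcb1a, 0.081, and Sox17, 0.0907, and largest for Slco1a4, 0.176, Cldn5, 0.184, and Mfsd2a, 0.211. Over 8834 genes of like level the median SD was 0.101, and 89.3% of them had a smaller SD than Cldn5 and 93.0% a smaller SD than Mfsd2a. Deviations from the group mean were then compared between genes over the 15 samples, in 45 pairs, with permutation p-values adjusted over the 45. Pearson's r was positive in 32 pairs and negative in 13, with a median of 0.29.

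Tek and Cdh5 moved together most closely, with r = 0.90 and Spearman's rho = 0.92 (permutation p = 0.00097 and 0.00026, adjusted 0.0436 and 0.0117), and r = 0.83 without the 2 samples farthest from the median of Tek. This was the 1 pair that passed the adjustment on r. The permutations treated the samples as independent, while same-numbered EL and ELKO samples, and their replicates 1 and 2 across numbers, deviated together. The permutation p-values may therefore be too small. Abcb1a and Tek had r = 0.77 and rho = 0.80 (permutation p = 0.00471 and 0.00237, adjusted 0.0819 and 0.0533). Flt1 and Cdh5 had r = 0.68 and rho = 0.72 (permutation p = 0.00546 and 0.00871, adjusted 0.0819 and 0.0984), which fell to r = 0.44 without the 2 samples farthest in Flt1, so the relation rests in part on them. Each gene was also compared with the mean of the 10, itself included, as a description. A member's r is thus in part with itself and cannot be set against that of genes outside the members. Tek was nearest to it (r = 0.89), followed by Slco1a4 (0.81), Cdh5 (0.79) and Abcb1a (0.78), while Sox17 (0.18) and Mfsd2a (-0.15) did not follow it. The 5 genes outside the members with the highest r to that mean among 15794 were Frmd4b, Hps3 and Rtp4 (0.87 each), Qk (0.86) and Pcmtd1 (0.84). On a vessel list were 1 of the 50 highest and 97 of all 15794. All these correlations share the samples' RNA composition and depth, which were not taken into account.

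Mfsd2a and Cldn5 did not pass as a pair, with r = -0.50 and rho = -0.32 (permutation p = 0.0701 and 0.207, adjusted 0.251 and 0.417) and r = -0.29 without the 2 samples farthest from the median of Cldn5. The plot of the 2 genes shows the samples behind these values. 5EL replicate 3, 5ELKO replicate 1 and ELKO replicate 1 each had the lowest Cldn5 of their group (9.06, 9.26 and 9.19) and the highest Mfsd2a (9.67, 9.92 and 9.90). In EL the lowest Cldn5 (9.44) and the lowest Mfsd2a (9.33) were both in replicate 1.

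**Figure D5:**
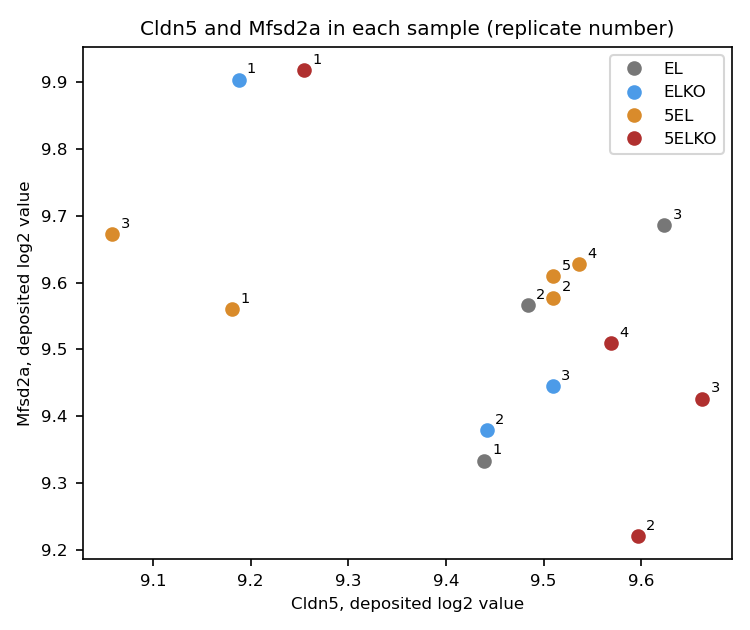
Deposited log2 value of Mfsd2a (vertical axis) against Cldn5 (horizontal axis) in each of the 15 samples, coloured by genotype group and labelled with the replicate number. 5ELKO replicate 1 and ELKO replicate 1 lie at the upper left with Mfsd2a at 9.92 and 9.90 and Cldn5 at 9.26 and 9.19.

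The annotation bears on how some values can be read. Reads were counted without strand, and exons of Abcb1a overlap Gm42686 and exons of Sox17 overlap Gm37587 on the other strand, so reads of these partners cannot be told apart from the member's own. Abcb1a (chr5:8660077-8748575, plus strand) has the paralog Abcb1b next to it (chr5:8798147-8866315, plus strand), and Slco1a4 (chr6:141805440-141856199, minus strand) belongs to a family of similar genes, between which shared reads could be split. The other members, Mfsd2a (chr4:122946850-122961188, minus strand), Tek (chr4:94739289-94874976, plus strand), Cdh5 (chr8:104101625-104144511, plus strand), Ocln (chr13:100496507-100552718, minus strand) and Pecam1 (chr11:106654217-106750628, minus strand), had no annotated exon overlap with another gene.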

How the data were processed

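RNA of thalamic tissue was measured in 15 samples by bulk RNA-seq. Per the study's methods, the authors checked reads with FastQC 0.11.9, trimmed adapters (Trimmomatic 0.39), mapped to GRCm38 (HISAT2 2.2.1), handled alignments in SAMtools 1.16.1, counted read pairs over exons by gene name without strand (featureCounts 2.0.3) and used DESeq2 1.38.3 for their own tests. The authors deposited log2 values, 1 table of 29659 genes per sample. The transform and the annotation release are not given in the sources used here. Low genes were drawn together (median SD within groups 0.00372 for genes with a mean below 0, 0.106 for means from 6 to 10). Folds of low genes are therefore understated, and without counts no counting interval can be given. Of 105 pairs of samples 0 were identical. Groups and replicate numbers came from the sample labels, and nothing says what else same-numbered samples share. The study lists each 5EL and 5ELKO library under an identifier of its own, while nothing used here says so of EL and ELKO, where p-values may measure only technical spread. One further 5ELKO library on that list was not analysed here.

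Genes at a log2 value of 3.32 (a linear value of 10) or more in at least 4 of 9 or 3 of 15 samples were tested with limma 3.58.1 in R 4.3.3 (lmFit, eBayes with a trend) with Benjamini-Hochberg adjustment. 5ELKO against 5EL was fitted on the 9 samples of those groups (15743 genes), the groups of the study's own comparison, and the rest on all 15 (15804 genes). Calls were made at a nominal p under 0.05, with the study's fold over 1.2, and at an adjusted p under 0.05. Single genes had a two-sided exact permutation test (SciPy 1.17.1), and correlations used 100000 permutations. The fitting step was tested on simulated data beforehand. Replicate numbers were checked as pairs: deviations of same-numbered EL and ELKO samples correlated at 0.453, 0.325 and 0.742, which meets the rule for pairing (each over 0.1), while those of 5EL and 5ELKO correlated at -0.244 to 0.143. ELKO replicate 2 with EL replicate 1 (0.376) and ELKO replicate 1 with EL replicate 2 (0.295) were also over 0.1. Replicate 3 of either group with replicate 1 or 2 of the other lay at -0.626 to -0.465. The numbers therefore do not single out pairs among replicates 1 and 2.

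The 10 members, and 16 pathway and marker lists of 165 genes (3 found under older symbols), were chosen with earlier results of these data known, so counts over them are descriptions and no list was tested. Genes named were the members, the deleted gene, list genes called with a fold over 1.2 or else those with the smallest p, the paralog of Abcb1a, the 5 genes most like the members' mean and markers of samples that stood apart. Genes added after their values were seen are Ctnnd1, Tal1, Slc2a1, Slc16a1, Pgf, Nrp1, Ushbp1, Flt4, Slc52a3, Klf4 and Vegfa where the rule did not reach them. A listed gene that enters the counts is not reported here by name. Coordinates and exon lengths came from GENCODE M21 on GRCm38. Alternatives changed the filter, the variance prior, the scaling, the replicate block, the samples in the fit and each sample in turn.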

Additional observations from a re-analysis of the deposited data

Results flagged for a closer look

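Kdr in 5EL replicate 3 lay far below the 4 others of its group (7.66 against 8.05 to 8.12), a gap of 0.852 of the group's whole range. It was 1 of 26 groups of 4 or 5 samples checked over 13 genes, and chance alone flags about 1 in 20. Kdr did not pass between 5ELKO and 5EL without that sample.

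Among the 10 members and the 97 tested vessel genes, 6 were called by the nominal limma test of the interaction, against 2.73% of all genes. The interaction asks whether the difference made by loss of Lilrb4a itself differed with and without 5xFAD, and these 6 calls are nominal only. After adjustment 0 of them passed. Flt1 had an interaction of 0.29 (95% CI 0.02 to 0.57). Ctnnd1 had 0.25 (95% CI 0.06 to 0.44), from 0.13 with and -0.12 without 5xFAD. Vegfa had 0.23 (95% CI 0.00 to 0.45), Pgf -0.40 (95% CI -0.68 to -0.12), Fzd4 -0.49 (95% CI -0.91 to -0.07) and Slc2a1 -0.37 (95% CI -0.73 to -0.01). Leaving out the 3 samples that stood apart leaves ELKO with replicate 3 alone. The values were then 0.36 for Flt1, 0.21 for Ctnnd1, 0.08 for Vegfa, -0.27 for Pgf, -0.26 for Fzd4 and -0.27 for Slc2a1.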

How the results depend on the processing

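The number of members called at a nominal p under 0.05 stayed at 1 between 5ELKO and 5EL, 0 between ELKO and EL, 0 between 5EL and EL, 1 between 5ELKO and ELKO and 1 in the interaction under another filter, variance prior or scaling and without both samples high in choroid plexus genes. Leaving out 1 sample gave 1 to 3, 0 to 0, 0 to 1, 0 to 1 and 0 to 2. With the replicate number as a block (replicate block), fitted on the samples of the compared groups only, the counts were 1, 0, 1, 1 and 2: Flt1 in 5EL against EL was then -0.18 and called, Cldn5 joined Flt1 in the interaction (0.34), and Flt1 between 5ELKO and 5EL was 0.29. In the blocked fits a sample whose number had no partner took no part in the difference. These were 5EL replicates 4 and 5 against EL, the highest of 5EL in Flt1 (11.11 and 11.05). They were also 5ELKO replicate 4 against ELKO, and 5EL replicate 5 against 5ELKO and in the interaction. Outside EL and ELKO the samples share only a number. With the block on EL and ELKO numbers alone, chosen after seeing the data, the interaction count was 1. Leaving out the 3 samples that stood apart, also chosen after seeing the data, left ELKO with replicate 3 alone. Only differences are therefore given for that fit. Of 1150 recomputed member differences 85 changed sign, none of them called under either setting and the largest at 0.12 log2, with ELKO against EL holding more of them than any other comparison. Over all genes, nominal calls without the filter were 912 against 392 between 5ELKO and 5EL, with 29659 genes tested, and recentring the samples moved the higher share of calls between ELKO and EL from 44.6% to 24.2% and in the interaction from 54.9% to 73.4%. The number of samples limits the precision. The study lists total reads and RNA integrity for its 5EL and 5ELKO libraries, which were not used here. The lowest RNA integrity values listed are those of 5ELKO libraries, below every 5EL library. Their part in the differences between 5ELKO and 5EL was not tested. The depth of the EL and ELKO libraries is not given in the sources used here.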

Other observations

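In 3 of 4 groups the sample lowest in Cldn5 also stood out in 2 other vessel genes. Slc2a1, the glucose transporter of the barrier, was 12.19 in 5EL replicate 3, 11.99 in 5ELKO replicate 1 and 12.19 in ELKO replicate 1, the highest of each group. Kdr was 7.66, 7.96 and 7.93 there, the lowest of each group. In EL the sample lowest in Cldn5, replicate 1, had instead the lowest Slc2a1 (11.62) and the highest Kdr (8.18) of its group. These samples and genes were picked after their values were seen, and no test was made.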
